A study of Mus musculus with 6 samples.

Results

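The genes of the hypoxia response and of glycolysis were examined in mouse cells transformed by NeuNDL, with and without the kinase SLK. The list holds 39 genes picked by name for oxygen sensing, known regulation by the hypoxia-inducible factors (HIFs) or a step of glycolysis. Earlier results of these data were known when it was chosen. Of these, 35 had a probe set annotated to that gene symbol alone, among 22180 genes tested. For the 6 genes with 2 such probe sets, the one with the highest mean over the arrays was used. Aldoa and Ankrd37 had only probe sets shared with another gene, Gpi1 and Eno1 had no listed probe set, and these 4 genes were not analysed here.

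Total RNA was biotin-labelled and measured on 6 one-colour arrays. There were 3 arrays of SLK-knockout cells and 3 of SLK wild-type cells, all untreated and grown in serum with a mammary epithelial growth supplement. SLK, a kinase of the Ste20 family, takes part in cell migration, and NeuNDL is an activated form of Neu, the rat counterpart of the ErbB2 receptor, from which the cells of both genotypes are derived by their label. Cultures of passages 9, 19 and 29 were used by the series' design text, which ties no passage to an array. The sources used here do not say how the gene was deleted, whether a line is 1 clone, or what oxygen and glucose levels the cultures had. The p-values measure the spread between these samples, which may be technical.

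In well-oxygenated cells prolyl hydroxylases, encoded by the Egln genes, modify the alpha subunits of HIF, and the VHL protein then directs these subunits to destruction. When oxygen is short the alpha subunits persist, pair with ARNT and bind a short core motif, here taken as ACGTG. This motif lies near genes of glucose uptake, glycolysis, angiogenesis and pH control. Tumour cells often run glycolysis at a high rate also when oxygen is plentiful. Most of the control by oxygen is on HIF protein, which an RNA measurement does not show.

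The arrays had medians of 3.93 to 3.97 on the deposited log2 scale. Slk (probe set 17360181) averaged 7.18 ± 0.03 in knockout cells and 8.28 ± 0.07 in wild-type cells (SD, n = 3 each), lower on every knockout array (log2 -1.10, SE 0.06, adjusted p = 0.0021). Whether its probes lie in the deleted part is not stated. Of 11 measured mammary epithelial markers none rose and 2 fell, the basal keratin gene Krt14 (log2 -0.66, adjusted p = 0.0096) and the E-cadherin gene Cdh1 (log2 -0.43, adjusted p = 0.022). Of all 22180 genes 0.437% passed this threshold, an adjusted p below 0.05. The genotypes did not overlap for 8 of the 11, or 72.7%, against 16.9% of all genes. Epcam (log2 -0.35) and Cldn7 (log2 -0.48), with Krt14 and Cdh1, had knockout arrays wholly below wild-type, while Krt8 (0.15), Krt18 (0.14), Krt19 (0.08) and Cldn3 (0.13) had them wholly above. The summed signal of the 11 on the linear scale was 4370 to 4477 in knockout cells and 4320 to 4410 in wild-type cells. Of 9 fibroblast markers 1 fell, Pdgfrb (log2 -0.67, adjusted p = 0.0066), and 7, or 77.8%, did not overlap, against 16.9% of all genes. Of these 3 were above, Dcn (0.43), Postn (0.37) and Pdgfra (0.10), and 4 below, Pdgfrb, Col1a1 (-0.33), Col1a2 (-0.19) and Col3a1 (-0.19). The fibroblast sums were 742 to 767 in knockout cells and 754 to 798 in wild-type cells. Of 6 adipocyte markers 1 rose, the fatty acid carrier gene Fabp4, with sums of 192 to 199.8 in knockout cells and 121 to 142 in wild-type cells. The other 5 adipocyte markers summed to 48.4 to 58.6 in knockout cells and 54.9 to 57.7 in wild-type cells. Of these Cidec was wholly below wild-type (log2 -0.31), Adipoq (-0.08) and Plin1 (-0.18) had lower means, and Lep (0.26) and Pparg (0.02) had higher means. None of 7 endothelial or 7 leukocyte markers passed the threshold, and the sums of both overlapped between the genotypes. The endothelial sums were 88.6 to 99.9 in knockout cells and 92.1 to 102 in wild-type cells. Of the 7 endothelial markers, Kdr (log2 -0.32) and Tek (-0.22) were wholly below wild-type, or 28.6% against 16.9% of all genes, and 0 were wholly above. A higher mean in knockout cells was seen for 4 of the 7, the largest Cdh5 (0.17) and Tie1 (0.13). The leukocyte sums were 183 to 196 in knockout cells and 186 to 197 in wild-type cells. The macrophage-associated gene Cd68, at 7.06 or more on every array, made up most of the leukocyte sum, and without it the sums were 50.3 to 56.0 in knockout cells and 48.6 to 50.1 in wild-type cells. Tyrobp was wholly above wild-type (log2 0.29), and the pan-leukocyte gene Ptprc was at 2.33 or less on every array. The Snord genes, which encode small nucleolar RNAs and vary with the way RNA is prepared, had a median deviation from their gene means of 0.01, -0.13 and -0.15 on knockout arrays 1 to 3 and of 0.16, 0.09 and 0.03 on wild-type arrays 1 to 3. The part of these differences in the results that follow was not tested. In bulk RNA, a change in the number of cells of a type and a change in RNA per cell cannot be told apart.

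Of the 35 measured genes 1 passed the threshold, Egln3, which rose, and none fell. Across all 22180 genes 0.437% passed, 0.325% as higher and 0.113% as lower in knockout cells (limma, Benjamini-Hochberg adjusted p below 0.05 over all genes). At an unadjusted p below 0.05 there were 7 of the 35 genes, or 20.0%, with 6 higher and 1 lower, against 10.2% of all genes (5.75% higher and 4.47% lower). The arrays of the genotypes did not overlap for 11 of the 35, or 31.4%, of which 8 had knockout wholly above wild-type and 3 wholly below, against 16.9% of all genes (8.79% above and 8.1% below). These shares of all genes were not matched for signal, and 34 of the 35 genes lay outside the dimmest 30% of genes. The mean was higher in knockout cells for 25 of the 35, or 23 with each array centred on its median and 19 without knockout array 2, where 51.5% of all genes had a higher mean. The median log2 fold change was 0.04 over the 35 genes and 0.0038 over all genes, and without Egln3 it was 0.03. It was 0.017 without wild-type array 1 and 0.023 without knockout array 1. The median deviation of the 35 genes from their own means was 0.03, 0.04 and -0.01 on knockout arrays 1 to 3 and -0.03, 0.0022 and -0.02 on wild-type arrays 1 to 3 (pooled SD between arrays of one genotype 0.02), so knockout array 3 lay below wild-type array 2.

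**Figure D1:**
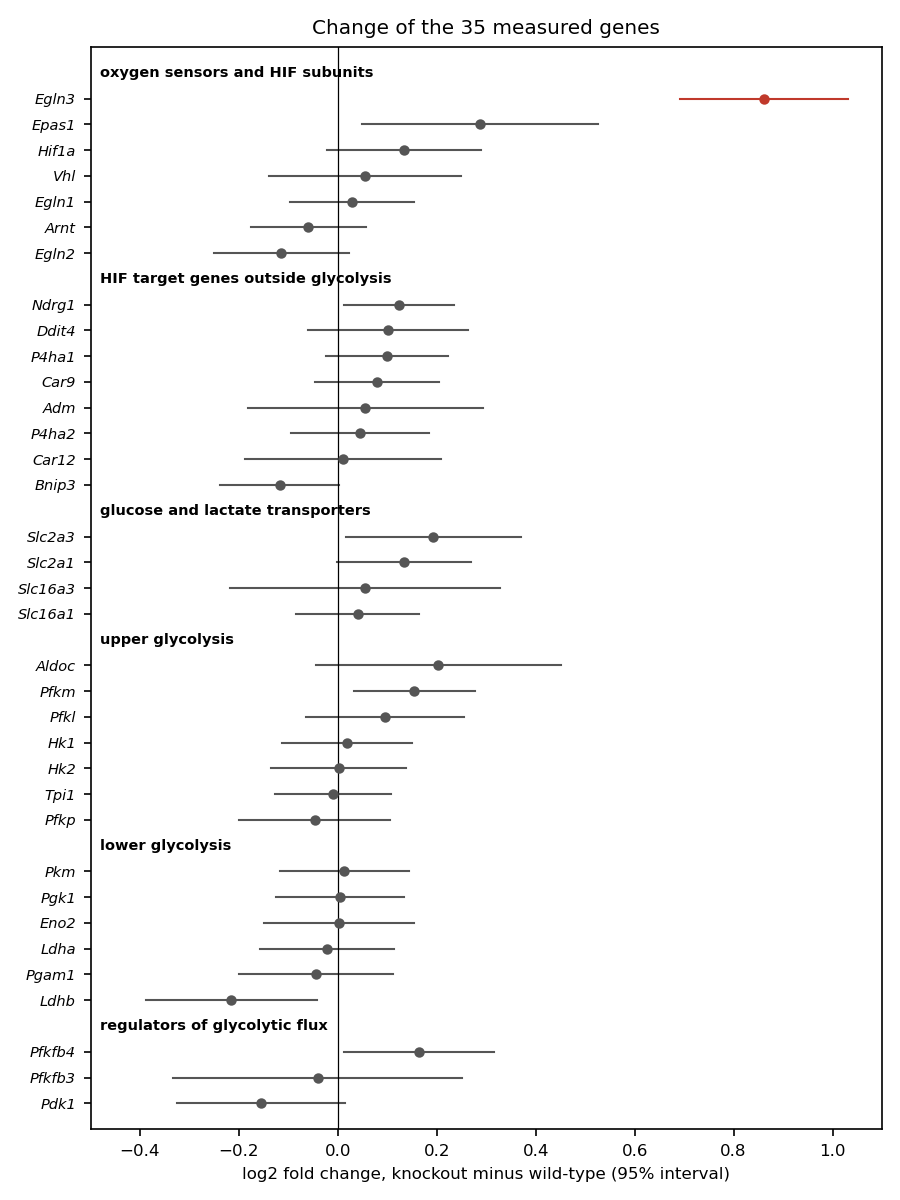
Log2 fold change of each of the 35 measured genes, knockout minus wild-type, on the horizontal axis, with its 95% interval from limma (3 knockout and 3 wild-type arrays), grouped by role. Egln3, in red, is the only gene past the threshold, at 0.86, while the other 34 lie between -0.22 and 0.29.

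Among the oxygen sensors, Egln3 stood at a higher level on every knockout array. This gene encodes prolyl hydroxylase PHD3, and it is itself a known target of HIF in many cell types. Egln3 (probe set 17281084) had log2 signals of 7.18, 7.07 and 7.28 in knockout cells, against 6.25, 6.34 and 6.36 in wild-type cells. The lowest knockout array was thus above the highest wild-type array by much more than the arrays of either genotype differed among themselves. The means were 7.18 ± 0.11 in knockout cells and 6.32 ± 0.06 in wild-type cells (SD, n = 3 each), a 1.82-fold higher signal (log2 0.86, SE 0.07, 95% interval 0.69 to 1.03, adjusted p = 0.0083). It ranked at position 24 by fold among the 72 genes called higher in knockout cells. The size of the change hardly depended on any one array, at 0.81 to 0.91 with 1 array left out, but the call was kept in only 2 of these 6 fits. With 1 array fewer, 16 to 28 of all genes were called, against 97 with all arrays. Without knockout array 2 or knockout array 3 the adjusted p was 0.031 and 0.041, whereas without knockout array 1 it was 0.066 and without wild-type arrays 1, 2 or 3 it was 0.052, 0.055 and 0.054.

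The other hydroxylase genes did not pass the threshold. Egln1, which encodes PHD2, the main oxygen sensor for HIF in most tissues, averaged 8.23 ± 0.03 in knockout cells and 8.20 ± 0.05 in wild-type cells (log2 0.03, 95% interval -0.10 to 0.15, adjusted p = 0.90). Egln2, which encodes PHD1, averaged 7.14 ± 0.04 in knockout cells and 7.25 ± 0.07 in wild-type cells (log2 -0.11, 95% interval -0.25 to 0.02, adjusted p = 0.57). Both intervals lie below that of Egln3. The difference between the log2 signals of Egln3 and Egln1 on the same array was larger by 0.83 in knockout cells, with no overlap between the genotypes. The exact two-sided permutation test gave p = 0.1 for it, the smallest value that 3 against 3 arrays allow, and 0.37 after adjustment over the 11 pairs of genes compared.

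The stretches before the start sites of the 3 Egln genes are shown because these relatives are known to differ in whether low oxygen raises their RNA and because Egln3 alone passed the threshold here. Each is the 250 bases before the gene start, 5′ to 3′ on the strand of the gene, from RefSeq on build GRCm38.p6, and capitals mark the motif ACGTG, searched on both strands. For Egln2 the window that holds the motif is shown, and its second listed start has none.
Egln3, chr12:54203875-54204124, minus strand: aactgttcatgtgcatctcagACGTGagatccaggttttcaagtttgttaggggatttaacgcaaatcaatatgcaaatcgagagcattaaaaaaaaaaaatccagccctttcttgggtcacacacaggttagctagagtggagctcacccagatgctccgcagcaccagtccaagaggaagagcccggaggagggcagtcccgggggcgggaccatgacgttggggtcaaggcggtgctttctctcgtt
Egln1, chr8:124949255-124949504, minus strand: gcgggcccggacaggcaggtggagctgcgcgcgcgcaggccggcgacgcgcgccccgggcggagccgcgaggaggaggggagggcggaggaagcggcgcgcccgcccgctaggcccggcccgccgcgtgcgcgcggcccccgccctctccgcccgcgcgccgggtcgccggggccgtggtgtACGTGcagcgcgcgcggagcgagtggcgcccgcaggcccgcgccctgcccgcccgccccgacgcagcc
Egln2, chr7:27166803-27167052, minus strand: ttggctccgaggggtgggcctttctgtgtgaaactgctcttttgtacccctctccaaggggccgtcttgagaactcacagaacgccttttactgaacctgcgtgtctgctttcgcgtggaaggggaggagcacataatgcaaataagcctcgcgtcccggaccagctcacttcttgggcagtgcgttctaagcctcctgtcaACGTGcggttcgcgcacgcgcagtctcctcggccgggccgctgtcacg
Each window holds the exact letters ACGTG 1 time, and variants of these letters were not searched. The match begins 229 bases before the start of Egln3, 68 bases before that of Egln1 and 48 bases before that of Egln2. Such windows were listed for 36 of the 39 genes, and 21 of the 36, or 58.3%, held the motif on either strand, against 18.5% of all 27025 genes with a window. The windows of the list were also richer in G and C, with a median of 61% against 52.4% for all windows, and the motif itself contains CG. The list was also picked in part for known regulation by HIF, and what lies behind its higher share was not tested. The letters were present for all 3 relatives, of which 1 passed the threshold. Whether the motif bears on any change was not tested. A match is a description of the sequence and was not tested as a binding site, and an element elsewhere in the gene would not be seen in this window.

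The subunits of HIF and VHL showed no change past the threshold. Epas1, which encodes HIF-2 alpha, had log2 signals of 4.33, 4.17 and 4.41 in knockout cells, against 4.14, 4.07 and 3.84 in wild-type cells. The groups did not overlap, but the nearest arrays were only slightly apart, and the log2 fold change of 0.29 (SE 0.10) had an adjusted p of 0.40. Hif1a, which encodes HIF-1 alpha, was at 7.25, 7.14 and 7.12 in knockout cells, against 7.03, 7.12 and 6.96 in wild-type cells. Its groups touched, with knockout array 3 just below wild-type array 2, and the log2 difference was 0.13 (SE 0.07, adjusted p = 0.56). A second, dim probe set of Hif1a gave 0.02, and the mean of both gave 0.08. Arnt, the shared partner of the alpha subunits, averaged 8.57 ± 0.02 in knockout cells and 8.63 ± 0.03 in wild-type cells (log2 -0.06, adjusted p = 0.74). Vhl averaged 6.02 ± 0.14 in knockout cells and 5.96 ± 0.06 in wild-type cells (log2 0.05, adjusted p = 0.87).

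**Figure D2:**
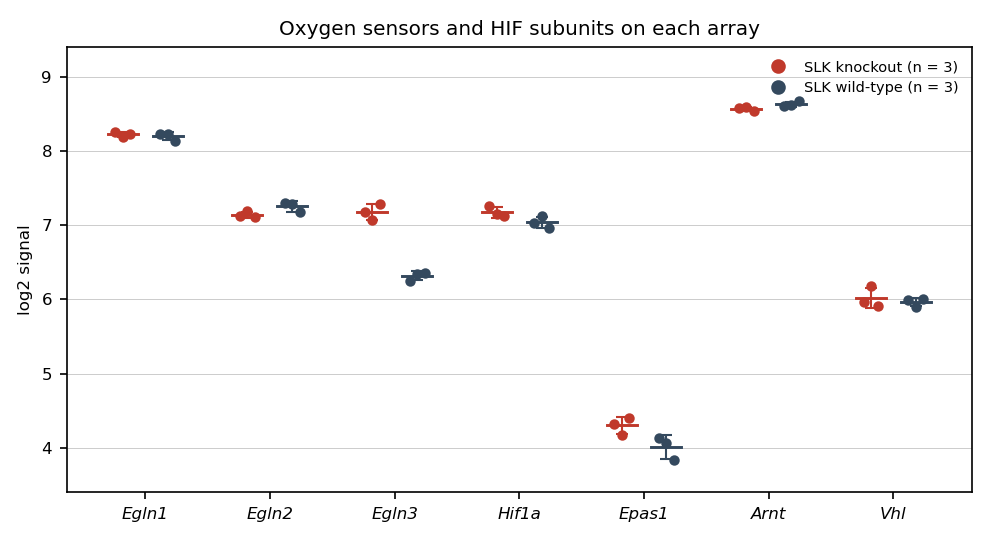
Log2 signal of the 7 oxygen-sensing genes on each array (vertical axis), with SLK knockout in red to the left of SLK wild-type in dark blue for each gene; horizontal lines are means and error bars SDs of 3 arrays. The Egln3 points are at 7.07 to 7.28 in knockout cells and at 6.25 to 6.36 in wild-type cells, while the other 6 genes differ far less.

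The HIF target genes outside glycolysis, many of which respond to low oxygen in most cell types, held no call among 8 measured. Their log2 fold changes lay between -0.12 and 0.12, with a median of 0.07, and 7 of the 8 had a higher mean in knockout cells. Ndrg1, a stress-responsive gene often used as a hypoxia marker, had signals of 7.75, 7.74 and 7.70 in knockout cells, against 7.61, 7.59 and 7.61 in wild-type cells. The groups did not overlap, and the spread within each was small, yet the difference itself was only 0.12 (SE 0.05, adjusted p = 0.44). A second, dim probe set of Ndrg1 gave 0.05, and the mean of both gave 0.09. P4ha1, a subunit of the collagen prolyl hydroxylase, was at 7.98, 7.94 and 7.87 in knockout cells, against 7.84, 7.84 and 7.82 in wild-type cells (log2 0.10, adjusted p = 0.58). Bnip3, which encodes a mitochondrial protein that promotes mitophagy, was at 5.44, 5.37 and 5.44 in knockout cells, against 5.53, 5.57 and 5.50 in wild-type cells. It was the only 1 of these 8 genes with knockout arrays wholly below the wild-type arrays, by -0.12 on the log2 scale (SE 0.05, adjusted p = 0.50). The carbonic anhydrase genes, which act in pH control and of which Car9 is among the most oxygen-dependent genes known in tumours, had log2 fold changes of 0.08 (Car9, 95% interval -0.05 to 0.20) and 0.01 (Car12, 95% interval -0.19 to 0.21). A dimmer second probe set of Car9 gave -0.08, and the mean of both gave -0.0026. Ddit4, an inhibitor of mTOR signalling, had 0.10, the vasodilator peptide gene Adm 0.06 and the collagen hydroxylase gene P4ha2 0.04. Without knockout array 1, Ddit4 was at 0.05 and P4ha2 at 0.0030.

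The glucose and lactate transporters all had higher means in knockout cells, and none of the 4 passed the threshold. Slc2a3, which encodes the glucose transporter GLUT3 and was dim here, had signals of 3.22, 3.41 and 3.22 in knockout cells, against 3.01, 3.11 and 3.14 in wild-type cells. Slc2a1, which encodes GLUT1, the widely expressed basal transporter, was at 9.24, 9.23 and 9.14 in knockout cells, against 9.01, 9.11 and 9.10 in wild-type cells. Neither gene overlapped between the genotypes, with log2 fold changes of 0.19 (SE 0.07, adjusted p = 0.45) and 0.13 (SE 0.06, adjusted p = 0.50). Without knockout array 2, Slc2a3 was at 0.13. The dimmer probe set of Slc2a1 gave -0.07, and the mean of both gave 0.03. Slc16a1, which encodes the lactate carrier MCT1, was at 8.78, 8.71 and 8.76 in knockout cells, against 8.66, 8.71 and 8.75 in wild-type cells (log2 0.04, adjusted p = 0.84). Slc16a3, which encodes the hypoxia-inducible lactate exporter MCT4, averaged 4.20 ± 0.20 in knockout cells and 4.14 ± 0.12 in wild-type cells (log2 0.06, 95% interval -0.22 to 0.33).

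In the upper part of glycolysis, from glucose to the triose phosphates, none of 7 measured genes passed the threshold. Pfkm, the muscle-type subunit of phosphofructokinase, had the smallest p of them, with signals of 5.96, 5.91 and 5.88 in knockout cells, against 5.80, 5.72 and 5.76 in wild-type cells. All knockout arrays were above all wild-type arrays, by 0.15 on the log2 scale (SE 0.05, adjusted p = 0.37). The other subunits did not separate: Pfkl, the liver type, was at 7.51, 7.54 and 7.36 in knockout cells, against 7.44, 7.33 and 7.36 in wild-type cells (log2 0.10), and Pfkp, the platelet type, had -0.05. Aldoc, an aldolase gene best known from brain, was at 4.29, 4.55 and 4.30 in knockout cells, against 4.04, 4.16 and 4.33 in wild-type cells. Its groups overlapped, and the log2 difference was 0.20 (SE 0.10, adjusted p = 0.57), or 0.12 without knockout array 2 and 0.28 without wild-type array 3. The hexokinase genes, for the first step, were at nearly the same signal in both genotypes. Hk2, the isoform that HIF and oncogenes often raise in tumours, averaged 6.78 ± 0.05 in knockout cells and 6.78 ± 0.06 in wild-type cells (log2 0.0023, or -0.0012 with each array centred on its median, 95% interval -0.13 to 0.14), and Hk1 had 0.02 (95% interval -0.11 to 0.15). Tpi1, triose phosphate isomerase, had -0.01.

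In the lower part of the pathway, from triose phosphates to lactate, none of 6 measured genes passed, and 5 of the 6 had a log2 fold change between -0.04 and 0.01. Ldhb, which encodes the heart-type subunit of lactate dehydrogenase, was the exception, at 5.66, 5.78 and 5.57 in knockout cells, against 5.96, 5.82 and 5.87 in wild-type cells. Its knockout arrays were all below its wild-type arrays, by -0.22 on the log2 scale (SE 0.07, adjusted p = 0.38). Ldha, which encodes the muscle-type subunit and is a classical HIF target, was at 6.80, 6.93 and 6.87 in knockout cells, against 6.84, 6.92 and 6.90 in wild-type cells (log2 -0.02, 95% interval -0.16 to 0.11). Pgam1, phosphoglycerate mutase, was at 8.79, 8.65 and 8.78 in knockout cells, against 8.84, 8.71 and 8.80 in wild-type cells (log2 -0.04, adjusted p = 0.87). Pkm, pyruvate kinase, averaged 11.3 ± 0.05 in knockout cells and 11.3 ± 0.04 in wild-type cells (log2 0.01, 95% interval -0.12 to 0.14). Its probe set does not tell the M1 and M2 splice forms apart here, since only 1 value per gene was used. Pgk1, phosphoglycerate kinase, had 0.0045 and Eno2, the neuronal enolase, 0.0024, which became -0.0011 with median centring. For 11 of the 13 measured enzymes of both parts the 95% interval lay within a 1.25-fold change in either direction, and the exceptions were Aldoc and Ldhb. Signals near the top of an array's range can compress fold changes, which bears on Pkm, Pgk1 and Tpi1.

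The genes that set the flux into and out of glycolysis were Pfkfb3 and Pfkfb4, whose enzymes make and remove the activator fructose 2,6-bisphosphate, and Pdk1, a kinase that inhibits pyruvate dehydrogenase and is a HIF target. None of these 3 genes passed. Pfkfb4 was at 5.11, 4.95 and 5.03 in knockout cells, against 4.89, 4.80 and 4.91 in wild-type cells. The genotypes did not overlap, with a difference of 0.16 on the log2 scale (SE 0.06, adjusted p = 0.45). Pdk1 was at 5.28, 5.18 and 5.13 in knockout cells, against 5.41, 5.41 and 5.24 in wild-type cells. Its groups overlapped on 1 array each, and the log2 difference was -0.16 (SE 0.07, adjusted p = 0.52), or -0.10 as the mean with a second, very dim probe set. Pfkfb3 was at 4.61, 4.89 and 4.85 in knockout cells, against 4.81, 4.63 and 5.03 in wild-type cells, the widest spread of the 3, so that changes within its interval of -0.33 to 0.25 were not detectable.

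**Figure D3:**
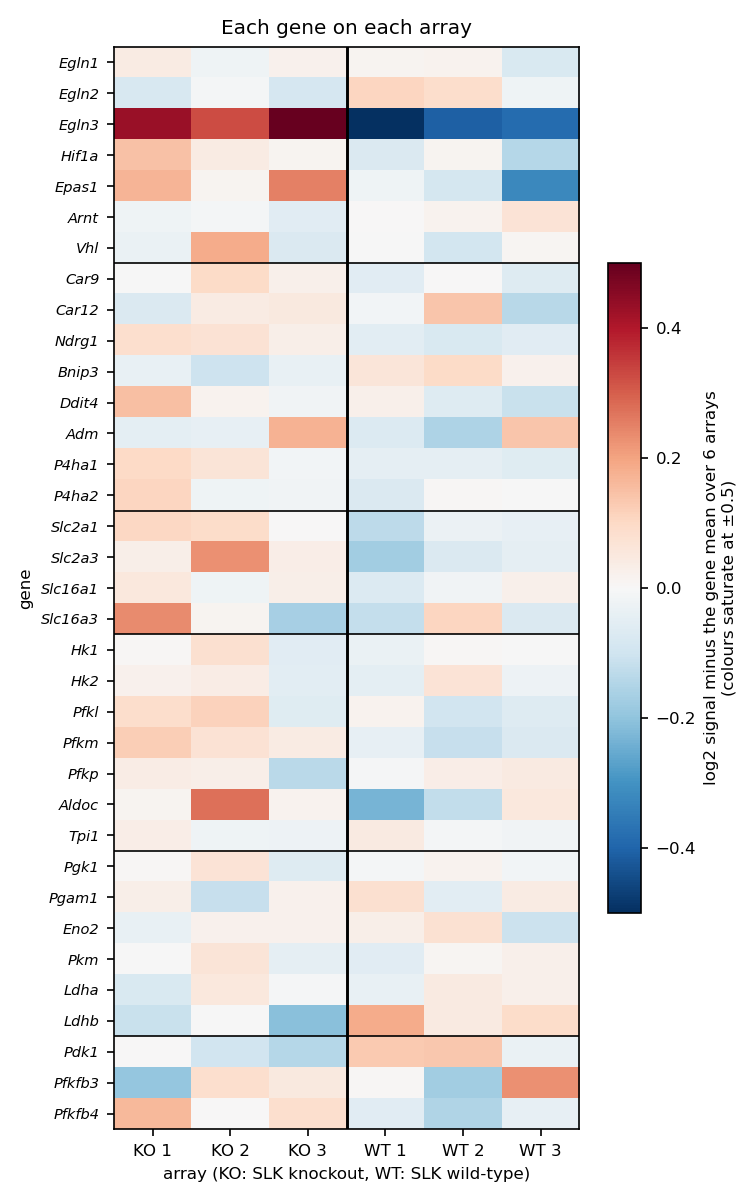
Log2 signal of each of the 35 genes (rows, in order of role, with lines between roles) minus its mean over the 6 arrays, for knockout arrays 1 to 3 on the left and wild-type arrays 1 to 3 on the right; red is above and blue below the gene mean. Egln3 is the only row with a strong contrast between the genotypes (0.86), and the median of the rows lies between -0.03 and 0.04 on each array.

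Of the 35 genes, 27 had a 95% interval wholly within a 1.25-fold change. The other 8 were Egln3, Epas1, Slc2a3, Slc16a3, Aldoc, Ldhb, Pdk1 and Pfkfb3. These intervals hold on the array's scale, on which low and very high signals can understate a change.

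Isoforms of one step were also compared within arrays, as the difference between their log2 signals. In 13 pairs set for this purpose, 11 had both genes measured. Besides Egln3 and Egln1, the differences did not overlap between the genotypes for 2 pairs. Ldha minus Ldhb was 1.20 ± 0.09 in knockout cells and 1.00 ± 0.12 in wild-type cells (SD, n = 3 each; exact two-sided permutation p = 0.1, adjusted p = 0.37). Pfkp minus Pfkm was 1.99 ± 0.07 in knockout cells and 2.19 ± 0.06 in wild-type cells (SD, n = 3 each; exact two-sided permutation p = 0.1, adjusted p = 0.37). With 3 arrays against 3 the test cannot go below 0.1, so none of the 11 pairs could pass. The hexokinases shifted little, with Hk2 minus Hk1 at 0.21 ± 0.03 in knockout cells and 0.23 ± 0.05 in wild-type cells.

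A further 83 genes of the same pathways were compared, of which 71 were measured. They were chosen by known role, but with earlier results of these data known. None passed the threshold in either direction. At an unadjusted p below 0.05 there were 10 of the 71, or 14.1%, with 6 higher and 4 lower, against 10.2% of all genes (5.75% higher and 4.47% lower). The genotypes did not overlap for 20 of the 71, or 28.2%, of which 11 were above and 9 below, against 16.9% of all genes. The median log2 fold change of the 71 was 0.00043. Of 11 other components of the HIF pathway, Arnt2, a relative of Arnt, had signals of 5.63, 5.67 and 5.63 in knockout cells, against 5.20, 5.37 and 5.37 in wild-type cells. All knockout arrays were above all wild-type arrays (log2 0.33, SE 0.06, adjusted p = 0.12). Ep300, a coactivator of HIF, had a log2 fold change of 0.07 and the ubiquitin ligase gene Siah1a -0.15, with adjusted p of 0.66 and 0.55, and Siah1a was at -0.096 without wild-type array 1.

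Among 30 other hypoxia-inducible genes, Stc1 differed between the genotypes by about as much as Egln3 and missed the threshold. This gene encodes stanniocalcin 1, a secreted glycoprotein. Its signals were 4.48, 4.17 and 4.64 in knockout cells, against 3.52, 3.56 and 3.26 in wild-type cells. The genotypes were well apart, although the arrays of each spread more than those of Egln3 (log2 0.98, SE 0.14, 95% interval 0.65 to 1.31, adjusted p = 0.053). Its adjusted p was 0.026 without the dimmest 30% of genes and 0.0029 with an intensity trend in the variance, and 0.069 to 0.20 with 1 array left out. Pgf, which encodes placental growth factor, a relative of VEGF, was at 4.58, 4.42 and 4.45 in knockout cells, against 3.57, 4.02 and 3.96 in wild-type cells (log2 0.63, SE 0.12, adjusted p = 0.13). Loxl4, a lysyl oxidase gene of matrix cross-linking, had 0.29 (SE 0.07, adjusted p = 0.22). These 3 genes also had knockout arrays wholly above the wild-type arrays. Vegfa, the best known of the HIF-induced angiogenic factors, averaged 7.86 ± 0.08 in knockout cells and 7.94 ± 0.04 in wild-type cells (log2 -0.09, adjusted p = 0.68), and was named after its value was seen. The median log2 fold change of the 30 genes was 0.0034, with 17 higher and 13 lower means.

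Of 30 other genes of glycolysis and pyruvate use, the 3 with the smallest p did not move one way. Pdk3, a pyruvate dehydrogenase kinase, was at 7.12, 7.09 and 7.22 in knockout cells, against 7.46, 7.39 and 7.44 in wild-type cells (log2 -0.29, SE 0.06, adjusted p = 0.13). Pdk4, of the same family, was at 4.20, 4.25 and 4.06 in knockout cells, against 4.45, 4.48 and 4.36 in wild-type cells (log2 -0.26, SE 0.07, adjusted p = 0.25). Both had knockout arrays wholly below the wild-type arrays. Eno3, the muscle enolase, was at 6.99, 6.82 and 6.66 in knockout cells, against 6.50, 6.56 and 6.52 in wild-type cells (log2 0.29, SE 0.09, adjusted p = 0.32).

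**Figure D4:**
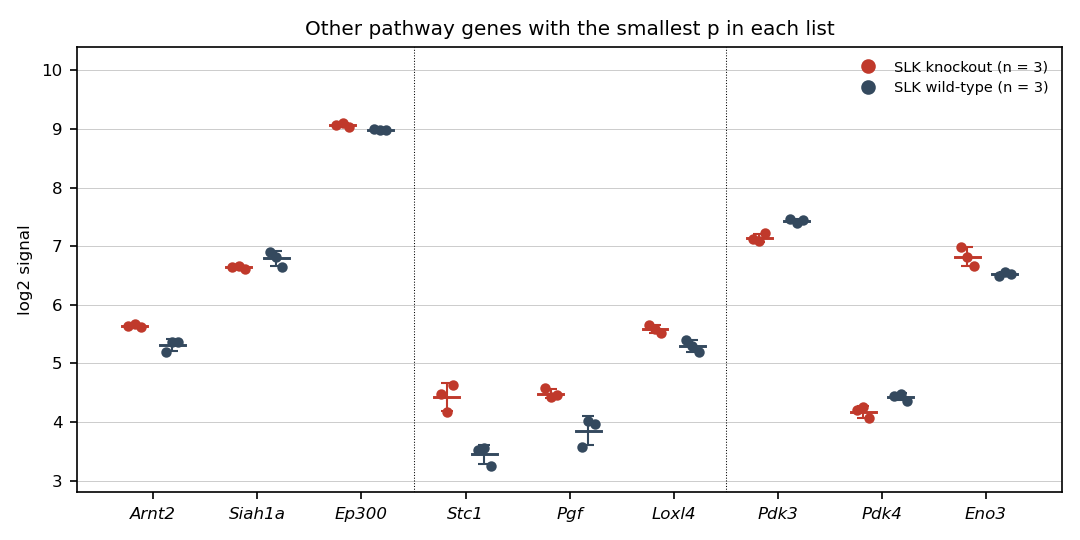
Log2 signal on each array (vertical axis) of the 3 genes with the smallest p in each of 3 further lists (HIF pathway, hypoxia-inducible genes, glycolysis and pyruvate genes, separated by dotted lines), SLK knockout in red to the left of SLK wild-type in dark blue; lines are means and error bars SDs of 3 arrays. Stc1 shows the widest gap, with knockout arrays at 4.17 to 4.64 and wild-type arrays at 3.26 to 3.56, and none of the 9 genes passed the threshold.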

How the data were processed

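The authors deposited 1 table of log2 values for 41345 probe sets on 6 arrays, made with Affymetrix Expression Console 1.4.1.46 per the submitters' processing notes. The sources used here give no background correction, normalization, summarisation, genome build or base of the logarithm. Base 2 was inferred, because the highest value was 12.4, while natural logarithms of a scanner's 16-bit intensities would end at 11.1. Array quartiles were nearly equal, so no further normalization was applied. No detection calls were used, and log2 values of dim genes compress fold changes.

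Only the 23521 probe sets that the platform annotation gives a single gene symbol were used, and 1814 with several symbols and 16010 with none listed were left out. Knockout was compared with wild-type over 22180 genes with limma 3.58.1 in R 4.3.3 (lmFit, eBayes, two-sided, no covariate, no filter), with Benjamini-Hochberg adjustment over all genes and a threshold of 0.05. Fold changes are knockout minus wild-type, errors are limma's moderated SEs, and intervals are 95%. Array number limits the precision.

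The genes and lists were chosen with earlier results of these data known. Values on every array are given for the 3 genes with the smallest p in each of 6 roles, for any with a change of at least 0.3, and for some of the 3 leading genes of each further list. The labels do not say whether replicate numbers pair the samples. Deviations from the genotype means correlated at 0.04, 0.02 and -0.07 for the same numbers. With 3 arrays per genotype this cannot decide it, and the main fit used no pairing.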

Additional observations from a re-analysis of the deposited data

How the results depend on the processing

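The Slk call was kept under all 12 alternatives, and neither Slk nor Egln3 changed sign under any of them; the other called genes were not followed. Egln3 kept its call under quantile normalization, median centring, the mean of probe sets, the filter on dim genes and the intensity trend. With the replicate number as a block, which the labels do not state to be a pairing, its change was the same (0.86) with adjusted p = 0.11. This fit called 0 of the 35 genes and 6 of all genes (5 higher, 1 lower). All genes called were 97 (72 higher, 25 lower). They became 206 (143 and 63) without the dimmest 30% of genes and 441 (265 and 176) with the intensity trend. Of the 71 further pathway genes these settings called 1 (Stc1, adjusted p = 0.026) and 4 (Stc1, Pgf, Arnt2 and Pdk3), against 0. Leaving out 1 array in turn gave 16 to 28 genes called (13 to 24 higher, 2 to 5 lower), 0 to 1 of the 35 genes, and a median log2 fold change of the 35 from 0.017 (without wild-type array 1) to 0.055. The isozyme pairs could not pass the threshold under any setting, since 0.1 is the smallest p possible. They were not rerun without an array, which would leave 2 against 3. Among the 46 genes followed, signs changed only for 16 genes with a change of at most 0.08. Values were Car9 -0.0026 and Pgam1 0.0041 with means of probe sets, Hk2 -0.0012 and Eno2 -0.0011 with median centring. With 1 array left out the ranges were -0.0030 to 0.045 for Egln1, -0.026 to 0.10 for Vhl, -0.058 to 0.081 for Car12, -0.018 to 0.14 for Adm, -0.049 to 0.15 for Slc16a3, -0.016 to 0.053 for Hk1, -0.022 to 0.038 for Hk2 and -0.078 to 0.0089 for Pfkp. They were -0.029 to 0.0089 for Tpi1, -0.028 to 0.038 for Pgk1, -0.082 to 0.0025 for Pgam1, -0.050 to 0.041 for Eno2, -0.017 to 0.037 for Pkm, -0.053 to 0.012 for Ldha and -0.14 to 0.063 for Pfkfb3. In all, 22 of the 35 genes moved by more than 1.5 times or changed sign with 1 array left out, the largest of them Aldoc (0.20). The remaining ranges among them were 0.051 to 0.099 for Car9, 0.051 to 0.14 for Ddit4, 0.0030 to 0.066 for P4ha2, 0.13 to 0.23 for Slc2a3, 0.016 to 0.062 for Slc16a1, 0.061 to 0.15 for Pfkl and 0.12 to 0.28 for Aldoc. The causes were not tested. The 3 arrays per genotype, and the compression of dim signals, limit what could be detected.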

Other observations

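The pyruvate dehydrogenase kinases, which inhibit pyruvate dehydrogenase, were set side by side after their values were seen. All 4 genes had a lower mean in knockout cells, 3 of them wholly below wild-type, as were 8.1% of all genes, and 0 of the 4 passed the threshold, which 0.437% of all genes passed. Their log2 fold changes were -0.16 for Pdk1, -0.13 for Pdk2 (SE 0.06, adjusted p = 0.53, or -0.086 without knockout array 3), -0.29 for Pdk3 and -0.26 for Pdk4. Pdk2 was at 5.86, 5.94 and 5.76 in knockout cells, against 5.97, 6.01 and 5.98 in wild-type cells. Because the family was picked for this shared direction, it has no test of its own.

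The genes that neighbour Egln3 in the order of RefSeq genes were looked up after its call was seen. Of the 8 nearest tested genes, 4 on each side, 0 passed the threshold, which 0.437% of all genes passed. A higher mean in knockout cells was seen for 6 of the 8, against 51.5% of all genes. The knockout arrays were wholly above wild-type for 3 of the 8 (Arhgap5, Snx6 and Cfl2), against 8.79% of all genes. Wholly below were 0 of the 8, against 8.1% of all genes. The log2 fold changes of the 8 genes lay between -0.07 and 0.35, against 0.86 for Egln3. Cfl2, which encodes the muscle cofilin, was the 1 with an unadjusted p below 0.05 (log2 0.13, SE 0.05, adjusted p = 0.43), and Akap6 had the largest value, 0.35, at a very dim signal of 2.86 ± 0.08 in knockout cells and 2.51 ± 0.32 in wild-type cells (SD, n = 3 each).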
